A study of Caenorhabditis elegans with 2 samples.

Results

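Small nuclear RNA (snRNA) genes and spliced leader RNA genes are the subject here: all 129 nuclear genes that Ensembl annotates as snRNA genes in Caenorhabditis elegans, of 46890 nuclear genes in all. Of these, 30 are spliced leader (sls) genes, 18 named sls-2 and 12 named sls-1, and 99 are other snRNA genes. A gene is called bound where a ZFP-3 peak had its summit between 1000 bp before and 200 bp after the annotated 5′ end of the gene. In the conservative peak list that the authors made from both libraries, 16 of the 129 were bound, or 12.4%, beside 3.88% of all nuclear genes and 5.38% of nuclear genes other than piRNA genes. These were 8 of the 30 sls genes, or 26.7%, all of them sls-2 genes, and 8 of the 99 other snRNA genes, or 8.08%. In the same list 41.3% of tRNA genes and 24.9% of snoRNA genes were bound, both above the 12.4% of all snRNA genes. Among the 18 sls-2 genes alone the share was 44.4%. Genes are not replicates and many of these share sequence, so the shares were set side by side and their difference was not tested.

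The series maps the zinc finger protein ZFP-3 in whole larvae by chromatin immunoprecipitation and sequencing (ChIP-seq). There was 1 group with 2 biological replicates, both of strain RW12271, in which CRISPR insertion fused the zfp-3 gene on chromosome X to TY1, EGFP and 3xFLAG. The animals were L4 larvae of 48 hours that had been synchronised by starving L1 larvae after bleaching, chromatin was sonicated to 200 to 800 bp, and the antibody was against GFP. A control experiment is named as possible in the labels and was not used here, nor were untagged animals. Whole animals mix all tissues, so the cells in which a site was occupied cannot be told apart.

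In nematodes most messenger RNAs are completed by trans-splicing, in which a short leader from a spliced leader RNA replaces the first part of the transcript. The SL1 leader comes from the sls-1 genes, which lie in a tandem repeat with the 5S ribosomal RNA genes, while the dispersed sls-2 genes encode the SL2 leaders, which are joined mainly to the downstream genes of operons. The other snRNAs build the spliceosome: U1 pairs with the 5′ splice site, U2 with the branch point, U5 holds the exons and U6 forms part of the catalytic core. RNA polymerase II makes most of them and RNA polymerase III makes U6, in both cases from short promoters with an upstream element that the SNAPc complex reads.

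The genes of both leader classes are shown first, because they differ in the leader and in how many were called bound in the thresholded lists. Capitals mark the first 22 bases from the start of the leader, GGTTT, and, where present, the letters ATTTTTG, known from the site where Sm proteins bind. All sequences are from the RefSeq genome sequence of the WBcel235 assembly, 5′ to 3′ on the gene's strand.

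sls-2.1 (chrII:5844865-5844974, plus strand): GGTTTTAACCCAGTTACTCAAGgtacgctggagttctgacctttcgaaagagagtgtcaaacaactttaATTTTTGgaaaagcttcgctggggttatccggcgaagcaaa
sls-2.8 (chrIII:12250465-12250575, plus strand): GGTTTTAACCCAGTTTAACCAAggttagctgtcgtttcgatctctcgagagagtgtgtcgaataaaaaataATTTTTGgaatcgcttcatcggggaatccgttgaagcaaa
sls-1.11 (chrV:17121670-17121767, minus strand): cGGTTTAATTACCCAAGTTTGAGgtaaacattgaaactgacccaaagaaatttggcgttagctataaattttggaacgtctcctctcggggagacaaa

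The sls and smy genes were grouped by name, and the others were linked into families wherever a pair was at least 80% identical over the shorter sequence. The families other than sls and smy are named here by a member, since the annotation gives no U class, and the letters they share are given. In the sup-6 family 12 of 13 genes hold ACTTACC, the letters with which U1 snRNA pairs with a 5′ splice site. In the W05B2.8 family 22 of 24 genes hold ACAGAGA, known from U6 snRNA. In the F38E11.10 family 11 of 12 genes hold GCCTTTTAC, known from the loop of U5 snRNA, and in the F08G2.9 family 18 of 19 genes hold GTAGTA, known from the part of U2 snRNA that pairs with the branch point. The 10 smy genes, whose SmY RNAs are nematode RNAs that bind Sm proteins, the 5 genes of the C52E4.8 family and 16 genes outside these families complete the set. Identity among these 16 is not given here, and mir-1831, which is counted with them, lies within sup-39. The sequence of sup-6 is shown with ACTTACC in capitals, and with ATTTTTG of the Sm site.

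sup-6 (chrII:12944803-12944967, minus strand): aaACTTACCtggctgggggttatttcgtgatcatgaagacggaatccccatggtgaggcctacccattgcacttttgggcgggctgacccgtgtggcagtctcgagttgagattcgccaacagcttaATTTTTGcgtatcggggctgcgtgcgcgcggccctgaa

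ZFP-3 summits were found at 6 of the 9 groups of this set in at least 1 thresholded list. In the conservative list 8 of 18 sls-2 genes were bound, 4 of 24 in the W05B2.8 family, 2 of 13 in the sup-6 family, 1 of 12 in the F38E11.10 family and 1 of 5 in the C52E4.8 family. None of the 12 sls-1 genes, the 19 genes of the F08G2.9 family, the 10 smy genes and the 16 genes outside the families was bound in that list. M163.13 of the last group was bound in replicate 2. The signal of a peak is its strength as deposited by the authors. No source used here names its scale, and signals are therefore compared within 1 list at a time. The read depth of the libraries is not known from these lists.

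The strongest summits at bound members had a median signal of 183 at the 8 sls genes (34.5 to 313) and 135 at the 8 other snRNA genes (95.4 to 232), beside a median of 82.3 over all 2010 peaks of the list. Both sets overlap widely. 15 of the 16 bound genes lay above the median of the list and 11 among its 502 strongest peaks. The exception was sls-2.3, with the lowest signal of the set.

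**Figure D1:**
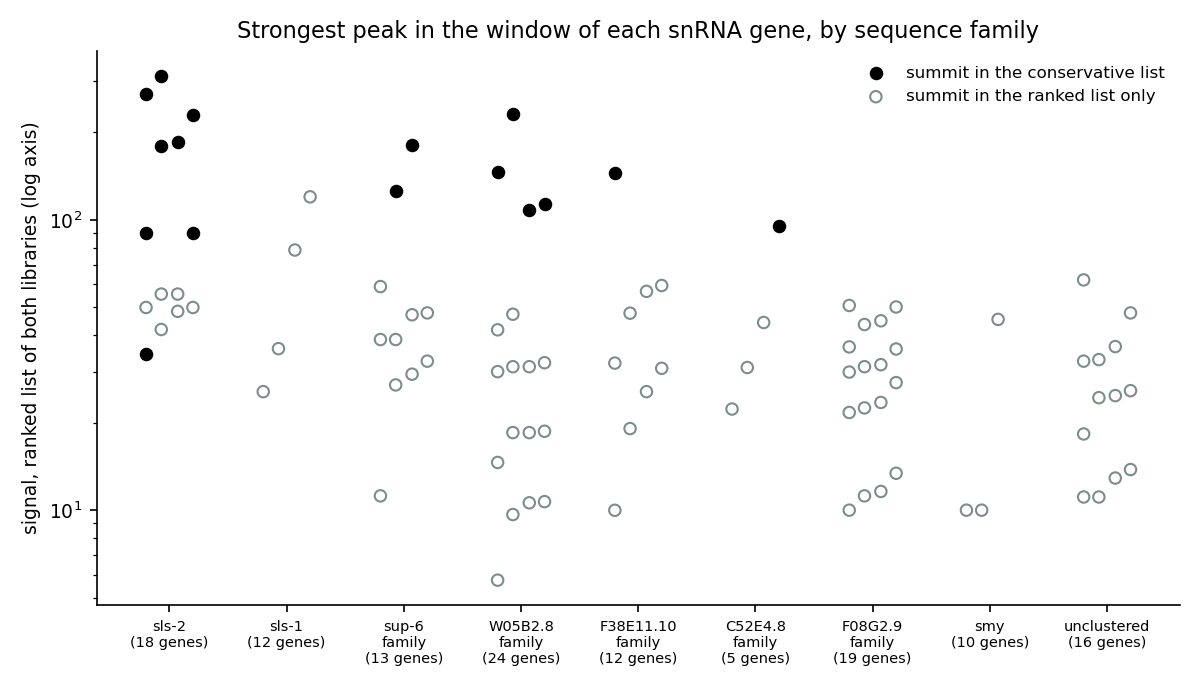
Signal of the strongest peak in the window of each snRNA gene in the ranked list of both libraries (vertical log axis), by sequence family (horizontal axis, with the number of genes). Black points are genes with a summit in the conservative list and open points genes with a summit in the ranked list only; genes with no ranked peak are not drawn. Black points are found in 5 of 9 groups, and the highest of them, 313, is the sls-2 gene sls-2.4.

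Each library alone gave fewer bound genes than both together. In replicate 1, 13 of the 129 snRNA genes were bound, 6 sls and 7 other, beside 1.99% of all nuclear genes. In replicate 2, 15 were bound, 6 sls and 9 other, beside 2.08% of all nuclear genes. In the other thresholded list of the series 14 were bound, 7 sls and 7 other, beside 3.03% of all nuclear genes. Of the 16 genes of the conservative list, 11 were bound in both single libraries, 4 in 1 of them and sls-2.16 in neither. The 11 were 5 sls-2 genes (sls-2.1, sls-2.2, sls-2.4, sls-2.8 and sls-2.9) and 6 others (W05B2.8, F54D8.7, C28A5.7, sup-6, T27E4.10 and F38E11.10).

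Where both libraries placed a summit, they placed it at nearly the same base. Over these 11 genes the strongest summits of the single libraries lay a median of 17.0 bp apart, and 9 of the 11 lay within 30 bp. C28A5.7 had its summit at -20 bp in both. F38E11.10 was the widest, with 199 bp in replicate 1 and -35 bp in replicate 2.

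**Figure D2:**
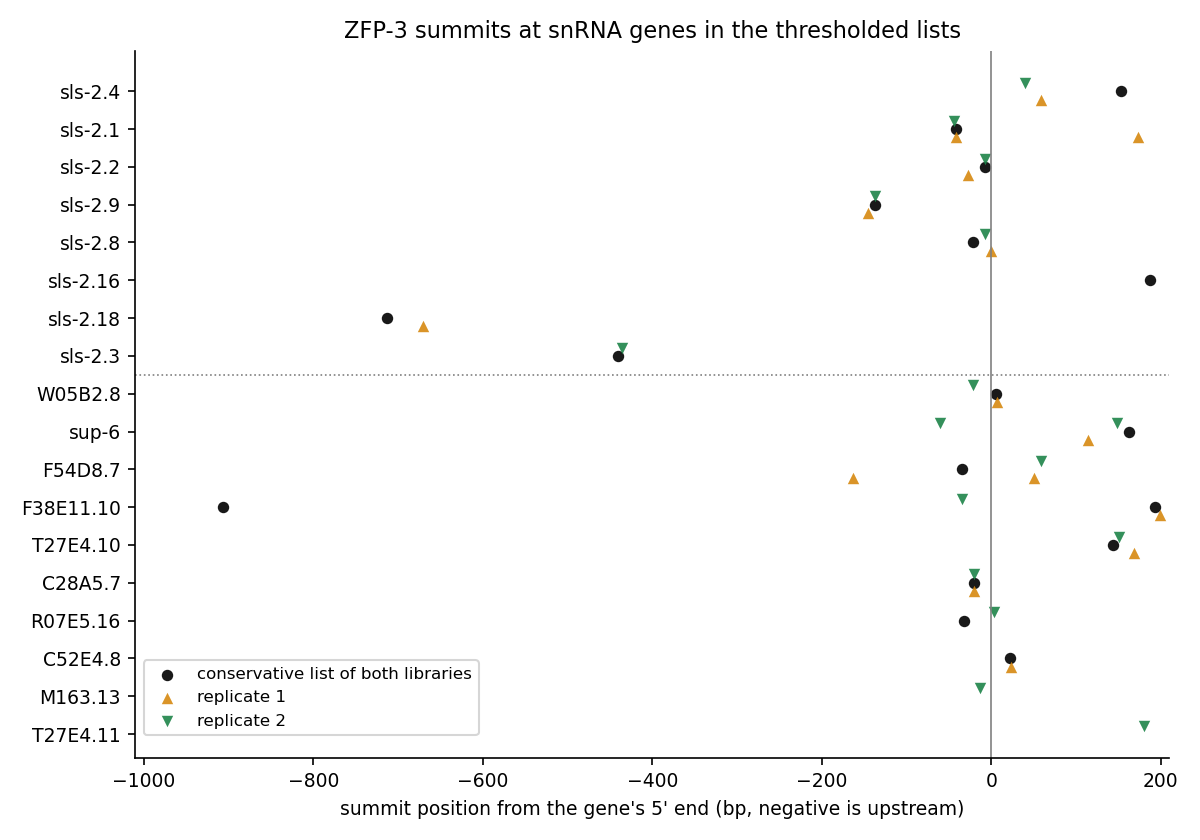
Position of each summit from the 5′ end of the gene (horizontal axis, bp, negative upstream) for the 18 snRNA genes bound in the conservative list, replicate 1 or replicate 2; black circles are the conservative list, upward triangles replicate 1 and downward triangles replicate 2. The sls-2 genes stand above the dotted line and the other snRNA genes below it, each ordered by signal. Most summits lie within 200 bp of the 5′ end, and those of sls-2.18, sls-2.3 and 1 of F38E11.10 lie farther upstream.

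The strongest sls sites were at sls-2.4, sls-2.1 and sls-2.2, all 3 SL2 leader genes. sls-2.4 on chromosome I (4172206 to 4172315) had a signal of 313 in the conservative list, 132 in replicate 1 and 138 in replicate 2. Its summit lay at 153 bp in the conservative list, past the end of this 110 bp gene, and at 59 and 40 bp, within the gene, in replicates 1 and 2. The same summit stood 53 bp upstream of R12E2.18, a noncoding RNA gene on the opposite strand that overlaps sls-2.4, and 770 bp upstream of egg-5, which encodes a pseudophosphatase of the egg-to-embryo transition.

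sls-2.1 on chromosome II (5844865 to 5844974) had a signal of 272 in the conservative list, 155 in replicate 1 and 109 in replicate 2. The summit lay at -42 bp in the conservative list, at -42 bp in replicate 1 and at -44 bp in replicate 2, so that all 3 lists put it just before the gene. A second summit stood at 175 bp with a signal of 105 in the other thresholded list of the series, whose median is 96.4, and at 173 bp with a signal of 10.9 in replicate 1. The promoter window of the protein-coding gene H41C03.3 reached the main summit from the far side, at -954 bp.

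sls-2.2, also on chromosome II (5543598 to 5543707), had a signal of 229 in the conservative list, 142 in replicate 1 and 92.3 in replicate 2, with summits at -8, -28 and -8 bp. No protein-coding gene shared its summit, which lay in the windows of the noncoding RNA genes C17C3.22 and C17C3.23. sls-2.1 and sls-2.2 are 92.7% identical as genes and 79.0% identical over the 100 bp before them. Those 100 bp are given here, since both summits lie in or at the edge of them; capitals mark TGTC, which is described further on.

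sls-2.1 upstream (chrII:5844765-5844864, plus strand): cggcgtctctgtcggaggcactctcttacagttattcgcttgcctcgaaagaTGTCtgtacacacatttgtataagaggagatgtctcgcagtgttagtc
sls-2.2 upstream (chrII:5543498-5543597, plus strand): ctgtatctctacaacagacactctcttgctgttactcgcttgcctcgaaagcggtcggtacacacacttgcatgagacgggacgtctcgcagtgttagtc

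sls-2.3 lies next to sls-2.2 on the opposite strand (II, 5544164 to 5544273) and is 97.3% identical to it, yet its values were the lowest among bound members. Its signal was 34.5 in the conservative list and 37.1 in replicate 2, and it was not bound in replicate 1. The summit lay 440 bp upstream, in an exon of ins-13, which encodes an insulin-like peptide. In the ranked list of replicate 2 a further peak with a signal of 40.9 stood at -19 bp.

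sls-2.8 (III, 12250465 to 12250575) had a signal of 179 in the conservative list, 105 in replicate 1 and 68.8 in replicate 2. Its summits at -22, -1 and -8 bp were in the space between tim-1, a clock gene homologue that acts in chromosome cohesion, and Y75B8A.23, both of whose windows held the summit. sls-2.9 on chromosome I (13297877 to 13297985) had a signal of 186 in the conservative list, 94.8 in replicate 1 and 79.9 in replicate 2. At this gene the summit lay 137 bp upstream and 5 bp into the transfer RNA gene M01E5.t1. Of the 612 tRNA genes, 253 were bound, with a median summit position of 15.0 bp.

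sls-2.16 and sls-2.18 shared 1 summit of signal 90.4 on chromosome III inside glr-2, which encodes a glutamate receptor subunit and holds 3 sls-2 genes in its introns. The summit lay in an exon of glr-2, 187 bp past the 5′ end of sls-2.16 and 713 bp upstream of sls-2.18, and was also 1025 bp upstream of sls-2.5, just outside its window. Replicate 1 had a summit 671 bp upstream of sls-2.18 with a signal of 55.8. Replicate 2 had a ranked peak of signal 36.1 and score 433 there, below the score of 830 that all thresholded peaks reach.

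Of the 10 sls-2 genes that were not bound, 6 had a ranked peak of both libraries in the window. Their signals of 41.9 to 55.5 were above that of the bound sls-2.3, at 34.5, and below those of the other bound sls-2 genes, and sls-2.5, sls-2.11, sls-2.13 and sls-2.17 had no ranked peak in any of the 3 lists. sls-2.10 had a summit of the conservative list at 216 bp, just outside the window, with a signal of 68.0. The bound sls-2.8 and the unbound sls-2.12 are 83.6% identical as genes and 62.0% identical over the 100 bp upstream, where both hold AACCCG and TGTC (in capitals).

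sls-2.8 upstream (chrIII:12250365-12250464, plus strand): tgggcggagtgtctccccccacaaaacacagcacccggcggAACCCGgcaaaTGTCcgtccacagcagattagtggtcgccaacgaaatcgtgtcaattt
sls-2.12 upstream (chrIV:5261813-5261912, plus strand): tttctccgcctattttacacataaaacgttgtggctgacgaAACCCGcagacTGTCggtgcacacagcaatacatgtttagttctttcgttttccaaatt

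The SL1 genes were missing from every thresholded list, and some of them had peaks in the ranked lists. In the ranked list of both libraries 4 of the 12 had one, or 33.3%, beside 62.3% of all nuclear genes. In replicate 1 it was 41.7% of the sls-1 genes, beside 34.3%, and in replicate 2 it was 16.7%, beside 36.0%. The 12 sls-1 genes lie among and beside 13 rrn-4 genes, the genes of 5S ribosomal RNA, in a repeat on chromosome V, where the sls-1 genes span 17118154 to 17132107 with a median spacing of 976 bp between sls-1 genes. A peak upstream of sls-1.11 had a signal of 120 in the ranked list of both libraries, 54.8 in that of replicate 1 and 71.5 in that of replicate 2. Its score was 1000 in all 3, above the 830 that the thresholded peaks reach, and its signal ranked 445 of 106942. The summit lay 392 bp upstream of sls-1.11 and 215 bp from the 5′ end of rrn-4.6, past the end of this 5S gene. A second peak, at sls-1.9, had a signal of 78.7 in the list of both libraries, 62.7 in replicate 1 and 22.3 in replicate 2.

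Peaks of that score that the thresholded lists lack were few: 52 in the series, 35 in replicate 1 and 43 in replicate 2. The thresholded lists name 1 more source file than the ranked lists, and no source used here says what it holds. Of the 32-base stretches within 150 bp of the 5′ end, none occurred at 1 place alone in the genome for 11 of the 12 sls-1 genes, and 10.6% did for sls-1.12. Around the summits themselves, 21.3% did at the peak of sls-1.11 and 9.97% at that of sls-1.9. The part of repeated sequence in these values was not tested.

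**Figure D3:**
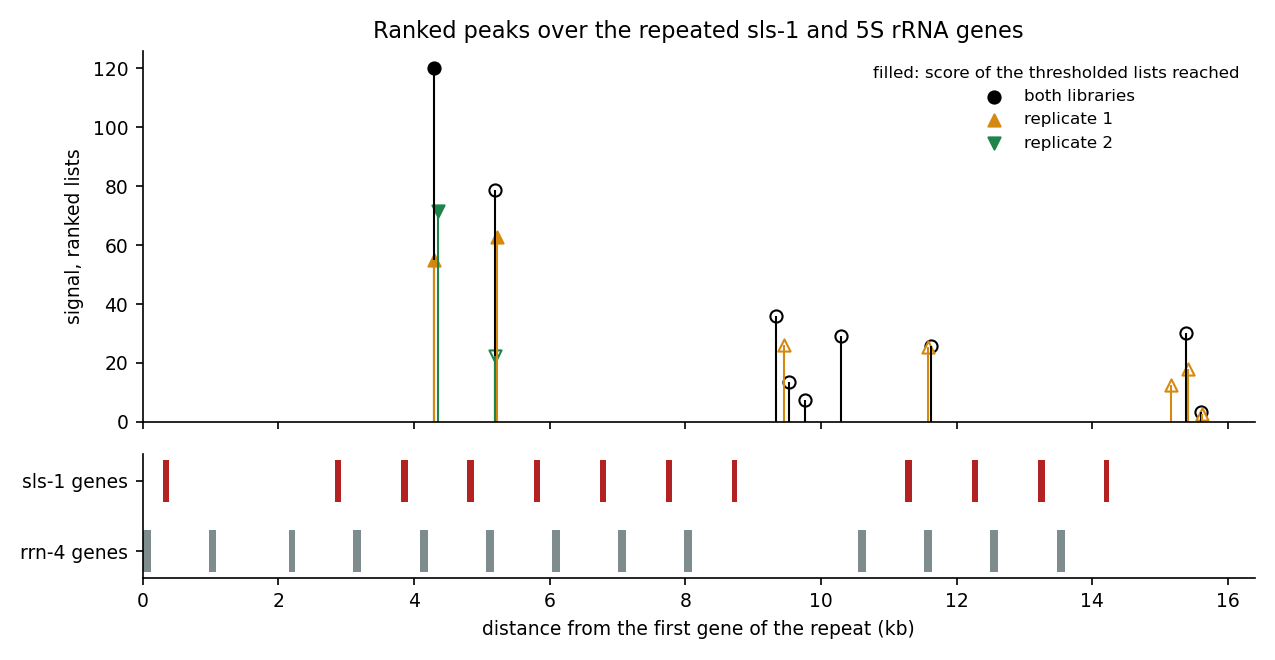
Ranked peaks over the sls-1 and 5S repeat: the height of each line is the peak's signal (vertical axis) and its place the distance from the first gene of the repeat (kb). Colours and symbols mark the list of both libraries, replicate 1 and replicate 2, filled symbols reach the score of the thresholded lists, and bars below show the sls-1 and rrn-4 genes. The highest line, 120, stands between rrn-4.6 and sls-1.9, and all 3 lists are filled there.

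sls-1.11 upstream (chrV:17121768-17121867, minus strand), the 100 bp before the gene with TGTC in capitals: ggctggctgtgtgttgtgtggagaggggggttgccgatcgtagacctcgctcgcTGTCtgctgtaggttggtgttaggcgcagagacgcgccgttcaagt

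Among the other snRNA genes the strongest site was at W05B2.8, which lies in an intron of dhc-4 on chromosome III (10989679 to 10989780) and shares its sequence with 14 genes of its family, itself included. Its signal was 232 in the conservative list, 99.4 in replicate 1 and 139 in replicate 2, with summits at 6, 7 and -22 bp. No other gene's window held this summit. F54D8.7 (III, 5080798 to 5080898) had a signal of 146 in the conservative list, 65.1 in replicate 1 and 63.6 in replicate 2. Its summit lay 35 bp upstream in the conservative list, but at 50 and 59 bp, within the gene, in replicates 1 and 2. Replicate 1 had a second summit 163 bp upstream with a signal of 21.4. The summit of the conservative list also lay 791 bp upstream of cox-6A, which encodes a subunit of cytochrome c oxidase.

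C28A5.7 (III, 4426854 to 4426955) had a signal of 113 in the conservative list, 51.0 in replicate 1 and 58.6 in replicate 2, at -20 bp in all 3. R07E5.16 (III, 4414185 to 4414286), in an intron of mpc-1, a mitochondrial pyruvate carrier gene, had a signal of 108 at -32 bp in the conservative list and 40.7 in replicate 2. Replicate 1 held it in its ranked list alone, with a signal of 50.5. All 4 bound genes of the family thus lie on chromosome III, with summits within 35 bp of the 5′ end in the conservative list.

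The same RNA sequence was bound at some of its copies and not at others. Of the 14 identical genes, W05B2.8, C28A5.7 and R07E5.16 were bound and 11 were not, and 9 of those 11 had a ranked peak, with signals of 5.74 to 47.3. In an intron of mam-3 lie 6 of the copies, whose ranked peaks had signals of 10.6 to 18.7. The share of 32-base stretches found at 1 place alone was 50.2 to 74.8% around the 5′ ends of the 3 bound copies and 19.3 to 70.8% around those of the 11 unbound copies. These ranges overlap, and the part of uniqueness in the difference was not tested. The upstream sequences of the 4 bound genes of the family are given with those of M163.13, a gene of another sequence that was bound in replicate 2. The letters AACCCG are in capitals, as are TGTC and also TATATAA.

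W05B2.8 upstream (chrIII:10989579-10989678, plus strand): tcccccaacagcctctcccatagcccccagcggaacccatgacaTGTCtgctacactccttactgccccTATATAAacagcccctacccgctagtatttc
R07E5.16 upstream (chrIII:4414085-4414184, plus strand): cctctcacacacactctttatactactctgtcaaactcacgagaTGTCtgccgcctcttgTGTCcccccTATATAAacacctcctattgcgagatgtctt
C28A5.7 upstream (chrIII:4426956-4427055, minus strand): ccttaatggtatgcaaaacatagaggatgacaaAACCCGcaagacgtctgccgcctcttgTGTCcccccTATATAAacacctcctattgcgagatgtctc
F54D8.7 upstream (chrIII:5080899-5080998, minus strand): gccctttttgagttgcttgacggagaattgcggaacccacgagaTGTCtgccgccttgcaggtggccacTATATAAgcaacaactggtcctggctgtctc
M163.13 upstream (chrX:14476767-14476866, plus strand): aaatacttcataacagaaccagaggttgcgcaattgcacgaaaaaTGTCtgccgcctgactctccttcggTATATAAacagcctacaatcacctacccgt

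M163.13 on chromosome X (14476867 to 14476946) had a signal of 57.9 at -13 bp in the thresholded list of replicate 2. Its peak in the ranked list of replicate 1 had a signal of 25 and stood elsewhere, at 183 bp, past the end of this 80 bp gene. In the ranked list of both libraries M163.13 had 62.1 at 3 bp with a score of 752, under the score of the thresholded peaks. The next strongest peaks of unbound members outside the sls-1 repeat were at ZK897.4, of the F38E11.10 family, with 59.4, and T08G5.11, of the sup-6 family, with 58.9.

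In the sup-6 family, sup-6 and T27E4.10 were bound. sup-6 (II, 12944803 to 12944967), in an intron of F58G1.7, had a signal of 181 in the conservative list, 60.4 in replicate 1 and 67.1 in replicate 2, with summits at 162, 114 and 148 bp, near the end of the 165 bp gene. Replicate 2 had a second summit at -61 bp with a signal of 21.8. T27E4.10 (V, 9090876 to 9091039) had 126 in the conservative list, 57.2 in replicate 1 and 67.8 in replicate 2, with summits at 144, 168 and 151 bp, also around its 3′ end.

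T27E4.10 and T27E4.11 flank a cluster of hsp-16 small heat shock genes in mirror image, are 99.4% identical, and have the same 100 bp upstream. At T27E4.11 (V, 9086858 to 9087021) the conservative list had a signal of 112 at 202 bp, just outside the window, and replicate 2 a signal of 51.6 at 180 bp. Of the 32-base stretches around the 5′ end, 3.65% were found at 1 place alone at T27E4.10 and 0% at T27E4.11. Around the summits in the conservative list, it was 51.5% at T27E4.10 and 63.8% at T27E4.11. The part of shared sequence in these peaks was not tested. T27E4.12 and T27E4.22 in the same region are overlapping annotations.

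T27E4.10 upstream (chrV:9090776-9090875, plus strand), also that of T27E4.11: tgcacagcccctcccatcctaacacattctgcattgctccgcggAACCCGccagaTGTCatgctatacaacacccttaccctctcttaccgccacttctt
sup-6 upstream (chrII:12944968-12945067, minus strand): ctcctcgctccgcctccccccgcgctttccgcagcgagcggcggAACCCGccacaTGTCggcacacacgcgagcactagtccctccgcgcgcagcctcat

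F38E11.10 (IV, 9444642 to 9444763) had 2 summits in the conservative list. The stronger, with a signal of 145, lay at 193 bp in an exon of hsp-12.3, a small heat shock protein gene, and the other, with 72.9, lay 907 bp upstream in an exon of F38E11.9. Replicate 1 had 69.1 at 199 bp and replicate 2 had 44.0 at -35 bp. F38E11.11, in an intron of F38E11.6, has the same gene sequence but 62.0% identity over the 100 bp upstream. It had no thresholded summit and a ranked signal of 19.1.

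F38E11.10 upstream (chrIV:9444542-9444641, plus strand): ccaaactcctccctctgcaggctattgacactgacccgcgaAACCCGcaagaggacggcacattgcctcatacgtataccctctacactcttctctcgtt
F38E11.11 upstream (chrIV:9464639-9464738, minus strand): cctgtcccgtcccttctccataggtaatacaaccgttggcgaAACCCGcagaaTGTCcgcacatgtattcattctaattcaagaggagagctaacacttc

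C52E4.8 (V, 11980118 to 11980261) had a signal of 95.4 at 22 bp in the conservative list and 53.1 at 23 bp in replicate 1, and was not bound in replicate 2, where its ranked peak had a signal of 39.2. The summit was also 417 bp upstream of snr-4, which encodes an Sm protein, a part of the ring that binds the Sm site of most snRNAs. T11F9.15, which has the same gene sequence as C52E4.8, had no ranked peak.

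**Figure D4:**
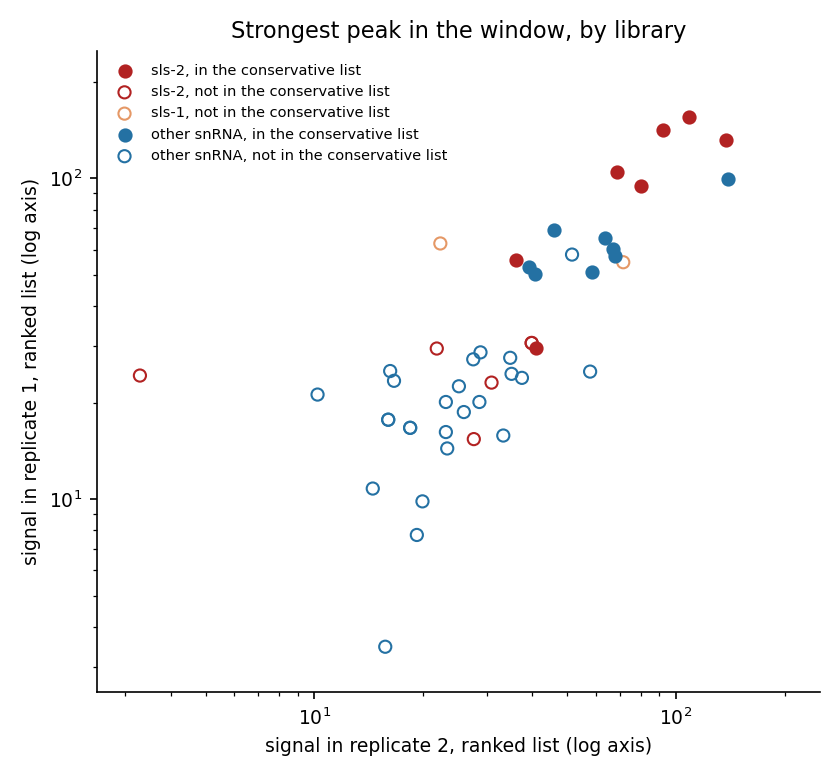
Signal of the strongest ranked peak in the window of each snRNA gene in replicate 1 (vertical log axis) and replicate 2 (horizontal log axis), for the 48 genes with a ranked peak in both; colours mark sls-2, sls-1 and other snRNA genes and filled points are in the conservative list. The axes are on the scales of their own lists. Most filled points lie at the upper right, and sls-2.3, with 29.6 in replicate 1 and 40.9 in replicate 2, lies among open points. The open points above 50 in replicate 1 are sls-1.9, sls-1.11 and T27E4.11. The peaks drawn for a gene can stand at different places in its window, as at M163.13.

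Within each library the bound sls genes had the higher median signal. In the thresholded list of replicate 1 it was 119 at bound sls genes and 60.4 at bound other snRNA genes, beside 61.3 over the list. In that of replicate 2 it was 86.1 at bound sls genes and 58.6 at bound other snRNA genes, beside 57.1 over the list. In both libraries the signals of sls and other snRNA genes overlapped: 55.8 to 155 against 51.0 to 99.4 in replicate 1, and 37.1 to 138 against 40.7 to 139 in replicate 2.

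The ranked lists hold weak peaks at many genes and separate the members less. In the ranked list of both libraries 93 of 129 snRNA genes had a summit in the window, beside 62.3% of all nuclear genes. In replicate 1 it was 60 of 129, beside 34.3%, and in replicate 2 it was 65 of 129, beside 36.0%. Among sls-2 genes 14 of 18 had a ranked peak of both libraries, with a median signal of 73.0, and among the F08G2.9 family 17 of 19, with a median of 29.9 and a highest value of 50.7 at R05D7.6. Of the 10 smy genes, 3 had one, with a highest signal of 45.4 at smy-1.

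Most bound genes shared their summit with another gene's window. When summits in windows of other gene types were left out, 13 of the 16 kept none, and 3, W05B2.8, R07E5.16 and F38E11.10, kept 1. At F38E11.10 this was the weaker summit, with a signal of 72.9, which lay 907 bp upstream in an exon of F38E11.9. Its stronger summit was shared and left out. Of all nuclear genes 0.00640% kept a summit. The rule itself makes this share small, since it removes summits in windows of genes of every other type. Many of the other genes were noncoding RNA genes annotated over or beside the member. When summits in windows of protein-coding, tRNA, snoRNA or miRNA genes were left out, 9 of the 16 remained. These were 3 sls genes (sls-2.2, sls-2.16 and sls-2.18) and 6 others (W05B2.8, R07E5.16, C28A5.7, sup-6, T27E4.10 and F38E11.10). Of all nuclear genes 0.505% kept a summit under this rule. The rule makes this share small too, since genes of the types left out can keep none. It is therefore no background for the 9 genes. When each summit went to the gene with the nearest 5′ end alone, 11 of the 16 remained. These were 3 sls genes (sls-2.1, sls-2.2 and sls-2.8) and 8 other snRNA genes. Under this rule 11 of all 129 snRNA genes were thus bound, beside 2.29% of all nuclear genes.

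The summits stood nearer the annotated 5′ end than at protein-coding genes, a difference that was not tested. At trans-spliced genes the annotated 5′ end need not be the start of transcription, so the positions are not fully alike. Their median position was -14 bp at the 16 bound snRNA genes, -32 bp at the sls genes and 14 bp at the other snRNA genes, against -266 bp at bound protein-coding genes, -54.5 bp at bound snoRNA genes and 15 bp at bound tRNA genes. Of the 16, 14 had the strongest summit within 200 bp of the 5′ end and 8 within 50 bp. 4 summits lay inside the snRNA gene, 3 past its 3′ end and 9 upstream.

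The upstream sequences of snRNA genes share short runs of letters. AACCCG was chosen as the 6 letters found before the largest number of members, and TGTC and TATATAA after the sequences were seen. Their shares among members therefore follow from the choice and are a description. Searched on both strands 100 to 20 bases before the 5′ end, AACCCG was found at 45 of 129 snRNA genes, or 34.9%, and at 1.42% of all nuclear genes. It stood before 10 of 18 sls-2 genes and all 12 genes of the F38E11.10 family, and before none of the F08G2.9 family. TGTC on the gene's strand, starting 65 to 40 bases before the 5′ end, was found at 90 of 129, or 69.8%, and at 7.71% of all nuclear genes. AACCCG stood before 7 of 16 bound and 38 of 113 unbound snRNA genes, and before 3 of 8 bound and 7 of 10 unbound sls-2 genes.

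TATATAA, searched the same way on both strands, was found at 17 of 129 snRNA genes, or 13.2%, against 2.96% of all nuclear genes, and at 15 of the 24 genes of the W05B2.8 family at a median start of -31.0 bp. A TATA box with an upstream element is the known layout of U6 promoters. The 4 bound genes of that family all hold TATATAA, as do 11 of its 20 unbound genes. Within 50 bp of the summit TATATAA was found at 4 of the 16 summits of snRNA genes, or 25%, against 1.34% of the 2010 summits of the list. These 4 were the summits of the bound W05B2.8 family genes alone, 3 of which have the same gene sequence. The other, F54D8.7, is annotated at 101 bp and is 100% identical to W05B2.8 over the shorter sequence. AGACGC was found at 1 of the 16, against 9.25% of all summits, and ACGCAG, which overlaps it by 4 letters, at 2 of the 16, against 9.30%. In the upstream windows AGACGC stood before 3.88% of snRNA genes and 1.61% of all nuclear genes. TATAAA stood before 12.4% of snRNA genes and 14.8% of all nuclear genes, and within 50 bp of 4 of the 16 summits of snRNA genes, against 5.97% of all summits. The 4 were at F38E11.10 and at W05B2.8, R07E5.16 and C28A5.7, where TATATAAA holds both runs of letters. These are matches of letters and not sites of a factor.

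Genes for proteins that make, carry or process snRNAs were bound at 7 of 47 found in the annotation, beside 4.45% of protein-coding genes. The lists were chosen with earlier results of these data known. Of the Sm and LSm proteins, which form the rings around snRNAs, 3 of 15 were bound. lsm-7 had a signal of 123 and lsm-6 of 105, each also bound in both single libraries. lsm-7 shared its summit with dnc-1 and lsm-6 with Y71G12B.13, both protein-coding genes. snr-4 shared the peak of C52E4.8. Of the Integrator complex, which cleaves the 3′ end of snRNAs, 2 of 11 were bound: ints-4, with a signal of 202 at -7 bp and bound in both libraries, and ints-8, with 105 and bound in replicate 1. Of the list with SNAPc, which binds snRNA promoters, 1 of 8 was bound, and it was tbp-1, the TATA-binding protein, with a signal of 72.1. Of the factors of spliced leader particles and snRNP assembly 1 of 13 was bound, smn-1, the homologue of the spinal muscular atrophy gene, with a signal of 82.5 at a summit shared with klp-16 and mir-4932. Neither tbp-1 nor smn-1 was bound in a single library.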

How the data were processed

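Peak lists from chromatin immunoprecipitation of tagged ZFP-3 in whole L4 larvae, 1 group of 2 biological replicates, were used as the authors deposited them, on the ce11 build. Per the deposited notes, the lists of single libraries were made from 1 library's alignments and the lists of the series from both. The signal is peak strength as the authors deposited it. The score is the authors' deposited scaled irreproducible discovery rate, and each thresholded peak had at least 830. The other unit, the summit's offset from the peak start, was also deposited by the authors. No source used here names the aligner or peak caller. No depth can be had from these files.

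Members were the snRNA genes of Ensembl release 115 (WBcel235), 129 of 129 matched to RefSeq symbols by WormBase ID. The members and lists were chosen with earlier results of these data known. A gene was bound where a summit lay between 1000 bp before and 200 bp after its 5′ end. Where a window held several summits, the strongest is given, except in the medians of the last section, which take the nearest. Families were joined at 80% identity over the shorter sequence, with a length ratio of at least 80% added after seeing a 22-base gene inside another. AACCCG was taken as the 6 letters found before the largest number of members, and TATATAA and TGTC were chosen after seeing the sequences. Uniqueness is the share of 32-base stretches within 150 bp of the 5′ end, or of a summit, that occur once in the genome. No test was made, since the design has 1 group and genes are not replicates. Every bound member was named, with unbound members of strong ranked peaks, bound pathway genes and genes that share a summit. F38E11.11, T11F9.15, sls-2.12, R05D7.6 and smy-1 were named after their values were seen. Window assignment was tested on simulated summits. Python 3.11.15, pandas 2.3.3, numpy 2.4.6 and Biopython 1.88 were used. The gene sequences of some members are not reported here.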

Additional observations from a re-analysis of the deposited data

How the results depend on the processing

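The number of bound snRNA genes was 16, and 13 to 15 when a single library's list replaced the list of both. The single lists had 6 sls genes each, 7 to 9 other snRNA genes and 15 to 16 distinct summits. Their median signal was 63.6 to 69.1 on those lists' own scale. All medians of signal in this section take the summit nearest the 5′ end of each gene, not the strongest. It was 14 in the other thresholded list and 15 in the 1005 strongest peaks, beside 2.47% of all nuclear genes. A window of 500 bp upstream to 100 bp downstream left 10 genes, 5 sls and 5 other, at 10 summits, beside 2.73% of all nuclear genes. Leaving out summits in windows of other gene types left 3 genes, 0 sls and 3 other, at 3 summits. Leaving out, as chosen after seeing the data, only summits in windows of protein-coding, tRNA, snoRNA or miRNA genes left 9 genes, 3 of them sls genes, at 8 summits. Assigning each summit to the nearest 5′ end left 3 sls genes. The sls count therefore depends on how summits shared with neighbouring genes, or with noncoding RNA genes annotated over the sls genes, are counted. The wider window gave 22 genes (4.95% of all nuclear genes), peak overlap 19 (4.33%), and the ranked peaks that reach the score, chosen after seeing the data, 17 (3.91%), with sls-1.11 added. The median signal at bound genes was 146. It was 163 in the other thresholded list, 163 in the narrow window, 113 in the wide window, 126 by peak overlap, 108 without summits in windows of other gene types and 113 in the variant added later. No paired analysis was possible because there is 1 group. Depth is unknown, and the part of near-identical copies in the peaks was not tested.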
